A study of Drosophila melanogaster with 4 samples.

Results

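The innexin genes of Drosophila melanogaster encode the channel proteins of insect gap junctions. They were picked by symbol from the deposited gene tables, as every gene whose symbol starts with inx and a digit, together with ogre and shakB. This gave 7 of 14162 gene symbols: ogre, inx2, inx3, inx5, inx6, inx7 and shakB. The family has a further member, the germ-line innexin zpg, which that choice leaves out and whose reads are given once below.

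The RNA came from dvpdf neurons of fly brains. There were 2 control libraries and 2 libraries in which nonA, the gene of a nuclear RNA-binding protein, was the target of RNA interference in those cells (labelled NonA RNAi). The labels give neither the driver and the RNA interference line nor the age, sex, sampling time or number of flies, and nothing in them says that the replicates were separate dissections, so a p-value here reflects no more than library-to-library spread, which may be technical. The targeted gene did not separate the groups: nonA stood at 256 CPM in control replicate 1, 241 CPM in control replicate 2, 168 CPM in NonA RNAi replicate 1 and 283 CPM in NonA RNAi replicate 2 (CPM, reads scaled to the summed gene reads of the library), so every direction below rests on the label of the libraries alone.

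Gene reads per library ran from 8419248 to 9832771, and 3 reads corresponded to between 0.305 and 0.356 CPM. The defining markers of the labelled cells were present, with the circadian neuropeptide gene Pdf at 4979 and 2159 CPM in controls and 18436 and 86575 CPM under the NonA RNAi label, and the neuronal gene elav between 163 and 256 CPM. The RNA was amplified before sequencing, per the labels, so reads are not independent molecules, and the counting intervals and floors given here cover counting error only. Where pairs of values are set against each other, the controls come first, then the libraries labelled NonA RNAi, each as replicate 1 and replicate 2. In RNA of many cells, fewer cells of a type and less RNA per cell cannot be told apart.

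Innexins span the membrane and assemble into hemichannels. Hemichannels of neighbouring cells dock to form a channel that passes ions and small molecules such as inositol trisphosphate and calcium. Between neurons these channels are electrical synapses, while in glia and epithelia they couple sheets of cells. In the fly brain shakB, inx6 and inx7 are known for neuronal coupling, and ogre and inx2 for coupling among glia, although genetic work has also given inx2 a role in clock neurons.

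Levels differed widely within the family. No read was assigned to inx5 or inx6 in any library. shakB and inx7 were read at modest levels that differed at most 2.31-fold across all 4 libraries. ogre and inx2 ranged much more widely and were highest in control replicate 2, and inx3 lay in between. By the quasi-likelihood test of edgeR, Benjamini-Hochberg adjusted over the 9404 genes tested, 0 of the 5 innexins with reads passed an adjusted p of 0.05 between the groups, where percent called over all genes was 0. At an unadjusted p under 0.05 there were 2, ogre and inx3, both lower in the libraries labelled NonA RNAi, against 4.97% of all genes in either direction and 3.38% in that direction. DESeq2, run as an alternative, called 0 innexins and 1.51% of all genes.

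shakB, whose protein forms the electrical synapses of the giant fibre escape circuit, was read in every library. It stood at 83.9 CPM in control replicate 1, 58.1 CPM in control replicate 2, 42.9 CPM in NonA RNAi replicate 1 and 69.3 CPM in NonA RNAi replicate 2, from 706, 571, 415 and 593 reads. The groups overlapped, with NonA RNAi replicate 2 between the controls. The group means were 71.0 ± 18.2 CPM in controls and 56.1 ± 18.7 CPM under the NonA RNAi label (± SD, n = 2 each), a fitted log2 fold of -0.29 (standard error 0.51) and a 95% interval from -1.50 to 0.93. edgeR gave an adjusted p of 0.998, and the difference was smaller than the spread within each group. Over the libraries left out in turn the log2 fold ran from -0.75 to 0.059. The gene has 8 annotated transcripts with 6 coding lengths in the Release 6 annotation, and the deposited tables hold a single value for all of them, so the neuronal isoforms could not be separated.

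inx7 encodes a partner of INX6 in the gap junctions of the mushroom body memory circuit. It had the lowest mean CPM of the innexins with reads, although inx3 was lower in NonA RNAi replicate 1, at 8.68 CPM. It stood at 16.0 CPM in control replicate 1, 20.5 CPM in control replicate 2, 8.89 CPM in NonA RNAi replicate 1 and 12.97 CPM in NonA RNAi replicate 2, from 135, 202, 86 and 111 reads. Either NonA RNAi library was below either control, and the gap between the nearest libraries was 3.06 CPM. The group means were 18.3 ± 3.19 CPM in controls and 10.9 ± 2.88 CPM under the NonA RNAi label (± SD, n = 2 each). The fitted log2 fold was -0.70 (standard error 0.75), with a 95% interval from -2.51 to 1.11, and the adjusted p of edgeR was 0.970.

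inx6 had 0 reads in all 4 libraries. If its reads were counted, this allows a level of up to 0.305 to 0.356 CPM depending on the library. inx5, a little-studied member, likewise had 0 reads in all 4. Among all gene symbols in the tables, 23.1% had no read in any library. Both genes are among 558 symbols for which the tables list a length of 0, but so are inx2, inx3 and inx7. Of the 558, 295 had reads and 263 (47.1%) had none.

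ogre, named optic ganglion reduced after its mutant, encodes INX1, which is needed in glia and neural precursors for the normal size of the nervous system. It stood at 73.2 CPM in control replicate 1, 438 CPM in control replicate 2, 19.3 CPM in NonA RNAi replicate 1 and 54.3 CPM in NonA RNAi replicate 2, from 616, 4307, 187 and 465 reads. Either NonA RNAi library was below either control, but the controls themselves differed 5.99-fold. The group means were 256 ± 258 CPM in controls and 36.8 ± 24.8 CPM under the NonA RNAi label (± SD, n = 2 each), a fitted log2 fold of -2.75 (standard error 0.98) and a 95% interval from -5.09 to -0.40. The unadjusted p was 0.0281 and the adjusted p of edgeR 0.921, so the difference did not pass. Without control replicate 2 the log2 fold was -0.93, and without the other libraries it lay between -3.77 and -2.16.

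inx2 encodes the innexin that joins with INX1 in glia and with INX3 in epithelia. It stood at 22.7 CPM in control replicate 1, 716 CPM in control replicate 2, 11.8 CPM in NonA RNAi replicate 1 and 61.2 CPM in NonA RNAi replicate 2, from 191, 7038, 114 and 524 reads. The groups overlapped: control replicate 1 lay below NonA RNAi replicate 2, and control replicate 2 stood far above the rest. The 31.6-fold gap between the controls was matched or exceeded in either direction by 7.62% of the 9404 genes. For ogre that share was 13.1% and for shakB 56.0%. The group means of inx2 were 369 ± 490 CPM in controls and 36.5 ± 35.0 CPM under the NonA RNAi label (± SD, n = 2 each), with a fitted log2 fold of -3.28, a standard error of 1.54 and a 95% interval from -6.98 to 0.42. The adjusted p of edgeR was 0.921. Without control replicate 2 the log2 fold turned to 0.76, and without the other libraries it lay between -5.02 and -2.52.

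inx3, whose protein assembles with INX2 in epithelial gap junctions, gave the clearest separation of the libraries by label among the innexins, though it did not pass the test. It stood at 35.6 CPM in control replicate 1, 53.7 CPM in control replicate 2, 8.68 CPM in NonA RNAi replicate 1 and 14.5 CPM in NonA RNAi replicate 2, from 300, 528, 84 and 124 reads. The lower control was 2.46-fold above the higher NonA RNAi library, and within the groups the replicates differed 1.51-fold and 1.67-fold. The group means were 44.7 ± 12.8 CPM in controls and 11.6 ± 4.11 CPM under the NonA RNAi label (± SD, n = 2 each). The fitted log2 fold was -1.90 (standard error 0.61), with a 95% interval from -3.36 to -0.43, with an unadjusted p of 0.0187 and an adjusted p of 0.921 in edgeR. It stayed between -2.40 and -1.54 when each library was left out in turn, with adjusted p from 0.302 to 1. With 2 libraries a group, the smallest two-sided p of an exact permutation test on a single gene is 0.333.

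**Figure D1:**
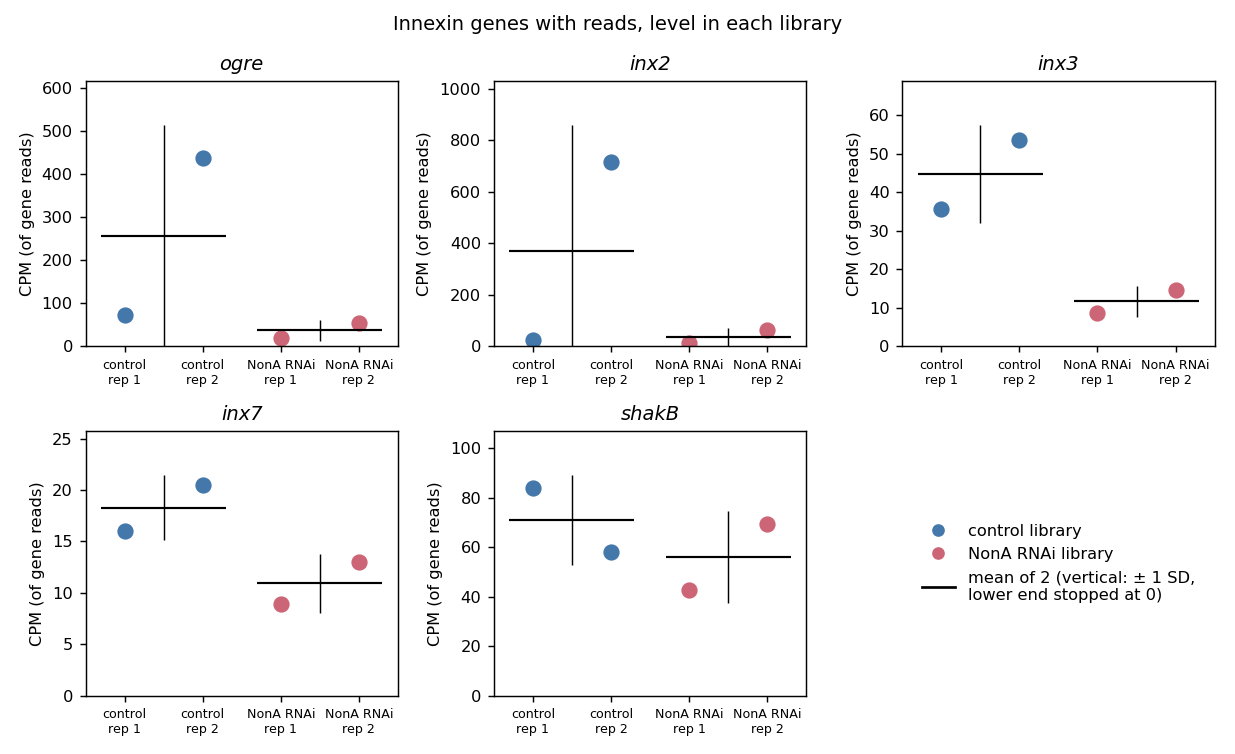
Level of each innexin gene with reads in each library, in CPM of gene reads, with a separate linear axis from 0 for each gene; points are libraries, horizontal lines the mean of 2 and vertical lines 1 SD to either side, stopped at 0. ogre and inx2 are dominated by control replicate 2 at 438 and 716 CPM, inx3 separates by label, and shakB overlaps.

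Of all 7 genes, then, 2 had no reads, 3 (ogre, inx3 and inx7) lay below both controls in both NonA RNAi libraries, 0 lay above both, and 2 (inx2 and shakB) overlapped; over all genes tested 17.5% lay below and 15.2% above. All 5 genes with reads had a fitted log2 fold below 0, as did 48.2% of the genes tested, with a median of -1.90 beside 0.03 for all genes tested. That median was -0.53 without control replicate 2. The libraries were not interchangeable: NonA RNAi replicate 1 was the lowest of the 4 for all 5 genes, which held for 27.4% of all genes, and control replicate 2 was the highest for 4 of the 5, which held for 23.4% of all genes. zpg had 46 reads in control replicate 2, 4.68 CPM, and 0 in each other library.

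**Figure D2:**
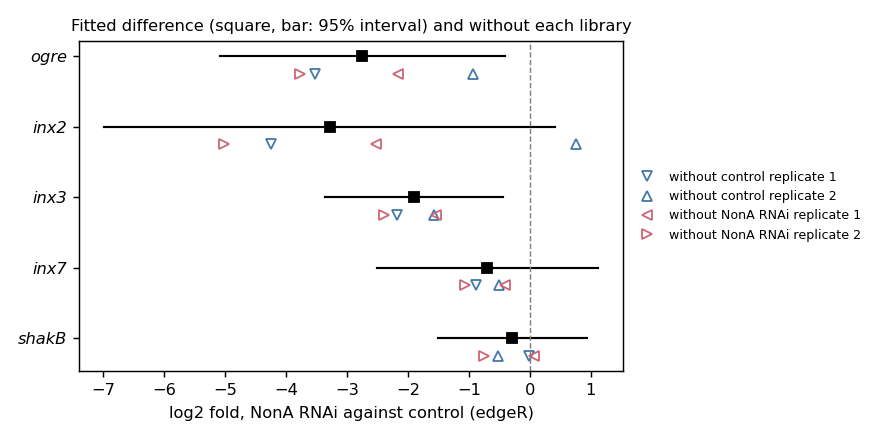
Fitted log2 fold of each innexin gene, NonA RNAi against control (square), with its 95% interval (bar) and, just below, the fold with each library left out in turn (open triangles). The triangle for inx2 without control replicate 2 lies above 0 at 0.76, while those of inx3 stay between -2.40 and -1.54.

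The make-up of the innexin reads differed most in control replicate 2. There the 7 genes took 12646 reads, 1286 CPM in sum, against 1948 reads and 231 CPM in control replicate 1, 886 reads and 91.6 CPM in NonA RNAi replicate 1, and 1817 reads and 212 CPM in NonA RNAi replicate 2. ogre and inx2 together made up 89.7% of the innexin reads in control replicate 2, against 41.4% in control replicate 1, 34.0% in NonA RNAi replicate 1 and 54.4% in NonA RNAi replicate 2. With ogre and inx2 set aside, the rest came to 136 and 132 CPM in controls and 60.5 and 96.8 CPM under the NonA RNAi label. The controls then differed little in sum, but ogre and inx2 are the genes with the widest gaps between controls. The remaining genes moved in opposite directions: from control replicate 1 to 2, shakB fell from 83.9 to 58.1 CPM. Over the same libraries inx3 rose from 35.6 to 53.7 CPM and inx7 from 16.0 to 20.5 CPM.

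The ratios between members do not depend on the scaling between libraries. The reads of inx7 and shakB were closest in ratio outside control replicate 2, with 0.191 and 0.354 reads per shakB read in the controls, against 0.207 and 0.187 under the NonA RNAi label. inx3 had 0.425 and 0.925 reads per shakB read in the controls, against 0.202 and 0.209 under the NonA RNAi label, lower in both than in either control. The ratio of inx2 to ogre reads was 0.310 and 1.63 in the controls, against 0.610 and 1.13 under the NonA RNAi label, so this pair of genes did not move in a fixed ratio. inx2 alone took 55.7% of the innexin reads in control replicate 2 (95% exact Clopper-Pearson interval 54.8% to 56.5%) and 9.80% in control replicate 1 (8.52% to 11.2%).

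**Figure D3:**
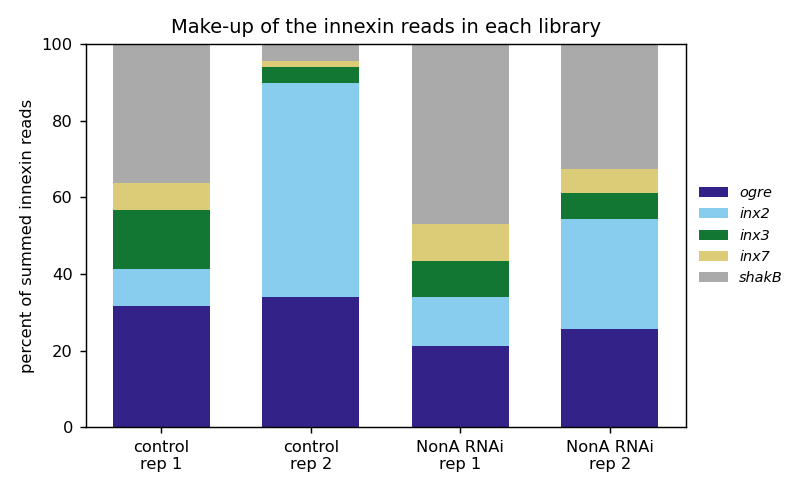
Percent of the summed innexin reads that fell on each gene, by library (stacked bars; inx5 and inx6 had no reads). ogre and inx2 fill 89.7% of the bar of control replicate 2, and shakB has its largest share, 46.8%, in NonA RNAi replicate 1.

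Levels of different genes were set side by side per kilobase of the longest coding sequence in the Release 6 annotation. The mean over the 4 libraries on this scale was 184 CPM per kilobase for inx2, 135 for ogre, 39.8 for shakB, 23.7 for inx3 and 11.1 for inx7. The order was not the same in each library. ogre led control replicate 1 at 67.4 CPM per kilobase, ahead of shakB at 52.5, whereas inx2 was 4 of 5 in rank there at 20.6. In control replicate 2 inx2 was first at 650 CPM per kilobase and ogre next at 403, while in NonA RNAi replicate 1 shakB was first at 26.9 and ogre next at 17.8. In NonA RNAi replicate 2 inx2, ogre and shakB were close, at 55.6, 50.0 and 43.4 CPM per kilobase. inx7 was last of the 5 in all 4 libraries, and neighbours in the order above it changed places between libraries. Per kilobase of all annotated exons, which include long untranslated parts, ogre and inx2 were level at 37.1 and 37.0 CPM and shakB fell to last at 3.47, so the place of shakB depends on the length used.

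**Figure D4:**
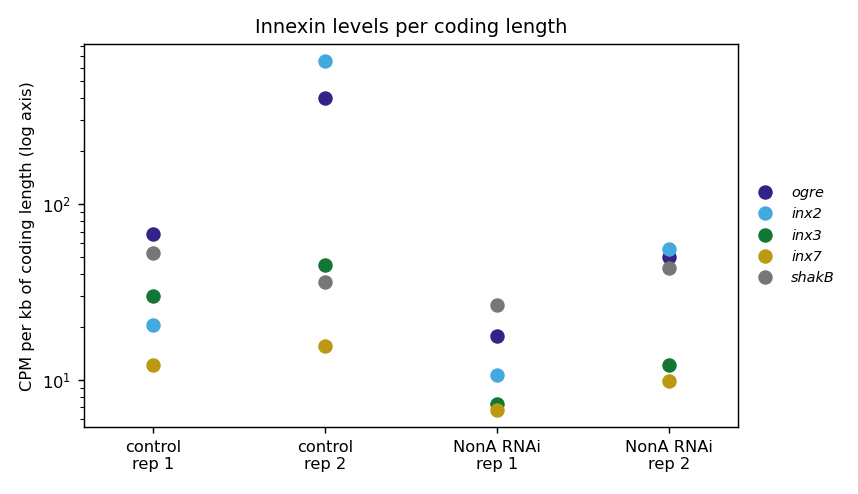
CPM per kilobase of coding length of each innexin gene in each library (log axis; each point is a gene in a library). inx7 is the lowest point in every library, and inx2 runs from 10.7 in NonA RNAi replicate 1 to 650 in control replicate 2.

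In the genome 3 of the members are neighbours. On the X chromosome ogre, inx7 and inx2 follow each other with no other protein-coding gene between them in the Release 6 annotation, ogre and inx7 on the same strand and inx2 on the other. inx7, in the middle, did not share the height of its neighbours in control replicate 2, where it was 1.28-fold above control replicate 1 against 5.99-fold for ogre and 31.6-fold for inx2. shakB, inx5 and inx6 also lie on the X and inx3 lies on 3R. bou, a gene needed for septate junctions, overlaps the span of ogre on the opposite strand, without shared exons, and spg overlaps inx3 in the same way. Whether strand was used in counting is unknown, which makes reads in such stretches uncertain. A long non-coding RNA shares 403 exon bases with ogre on the opposite strand, and a microRNA and another transcript share some exon bases of inx5. bou stood at 29.1 and 41.7 CPM in controls against 3.51 and 3.74 CPM, with a log2 fold of -3.25, a standard error of 0.70 and an adjusted p of 0.766 in edgeR, while DESeq2 called it.

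Genes with a similar course over the 4 libraries were sought by the root mean square difference of log2(CPM + 1), centred over the libraries, among 7276 other genes with a mean of at least 10 CPM. Closest to inx2 were CG42489, at a difference of 0.14, and fusl, a gene of presynaptic organisation, at 0.32. fusl stood at 9.86 and 515 CPM in controls against 5.58 and 23.6 CPM. Closest to ogre were the cytochrome P450 gene Cyp6a2 and egr, the tumour necrosis factor ligand gene, at 0.10 and 0.21. Closest to shakB were the cyclin-dependent kinase gene Eip63E and the menin gene Mnn1, at 0.02 and 0.03. With only 4 libraries many genes can follow any course this closely, so the matches are a description. Among the innexins themselves the closest pair on this scale was inx7 and shakB at 0.36, and the most distant inx2 and shakB at 2.21; inx2 and ogre differed by 0.89.

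Glial markers also differed between the libraries, and some of them in the order of ogre or inx2. Over 15 glial markers the summed level was 2224 CPM in control replicate 1, 6648 CPM in control replicate 2, 976 CPM in NonA RNAi replicate 1 and 2689 CPM in NonA RNAi replicate 2, the same order of libraries as for inx2. Most of the peak in control replicate 2 came from Gs2 and nrv2: the other 13 summed to 1096 and 1507 CPM in controls against 789 and 1464 CPM. Gs2, the glutamine synthetase gene of glia, stood at 573 and 3932 CPM in controls against 114 and 859 CPM. The defining glial transcription factor gene repo stood at 15.6 and 124 CPM in controls against 36.0 and 37.4 CPM. moody, a receptor gene of the blood-brain barrier, stood at 27.9 and 183 CPM in controls against 55.1 and 35.1 CPM. repo and moody thus shared the peak in control replicate 2 but were lowest in control replicate 1, which ogre and inx2 were not. Of the 15 markers 1, Gs2, had the libraries in the order of inx2 and 3 (nrv2, axo and zyd) in that of ogre. The transporter gene Eaat1, at 247 and 205 CPM in controls against 75.3 and 354 CPM, was among the 7 that did not peak in control replicate 2.

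Of the glial markers 8 of 15 were highest in control replicate 2, against 23.4% of all genes, and gcm was at 0 in 3 libraries. Of the 14 tested, 11 had a fitted log2 fold below 0, against 48.2% of all genes. Of the 14, 0 passed in edgeR (unadjusted p under 0.05 for 2, against 4.97% of all genes) and 0 in DESeq2, against 1.51%. The median log2 fold of the 14 was -0.83, or -0.15 without control replicate 2 and -1.30 without NonA RNAi replicate 2. The genes with the smallest p were zyd, deposited as CG2893 (log2 fold -1.73, standard error 0.48), axo (-1.39, 0.57) and the sodium pump subunit gene nrv2 (-1.94, 0.88), with adjusted p of 0.921 in edgeR for each. By contrast the 10 pan-neuronal genes found summed to 9683 and 7873 CPM in controls against 6485 and 10055 CPM, with a median log2 fold of 0.01 that ran from -0.27 to 0.23 over the libraries left out, and futsch, elav and Syx1A led them by p with log2 folds of -0.25, 0.25 and -0.44. The part of glial RNA in the levels of ogre, inx2 and inx3 was not tested.

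**Figure D5:**
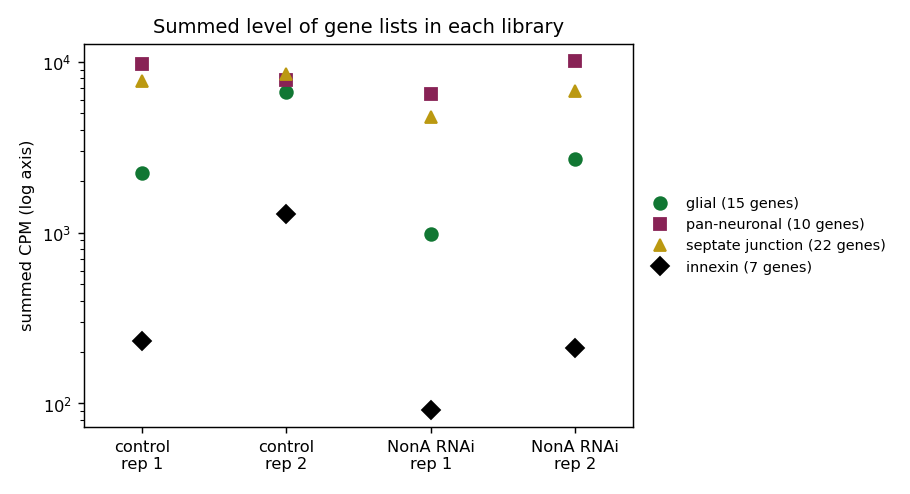
Summed CPM of the innexin genes and of 3 other lists in each library (log axis; each point is a list in a library). The innexin, glial and septate junction sums all peak in control replicate 2, at 1286, 6648 and 8458 CPM. The septate junction sum is mostly Atpalpha, which was itself highest in control replicate 1. They are lowest in NonA RNAi replicate 1, at 91.6, 976 and 4756 CPM.

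Markers of other cell types also differed in summed level between the libraries. Photoreceptor markers summed to 399.9 and 562 CPM in controls against 157 and 295 CPM, the same order of libraries as the innexin sum. The higher sum in control replicate 2 leaned on Arr1 and Arr2. From control replicate 1 to 2, Arr2 rose from 18.9 to 150 CPM and Arr1 from 14.0 to 89.3 CPM, whereas ninaE fell from 141 to 53.7 CPM. Counted by gene, 7 of the 13 markers were highest in control replicate 2, so the likeness in order is one of the sums only. Of the 13 markers 6 were at 0 in NonA RNAi replicate 1, and the median log2 fold was -2.12. That median was -1.36 without NonA RNAi replicate 1, -4.83 without NonA RNAi replicate 2 and -1.16 with a filter at 10 CPM. Arr1, Arr2 and Rh3 led them by p, with log2 folds of -5.24, -3.55 and -3.96. Of the 13, 11 were below 0, against 48.2% of all genes tested, and 2 above, Rh5 at 0.45 and Rh6 at 0.22 (standard error 3.06). Rh6 had 0 reads in control replicate 1 and in NonA RNAi replicate 1. Fat body and hemocyte markers summed to 4632 and 606 CPM in controls against 1268 and 553 CPM, with a median of -3.31. That median was 0 without control replicate 1 and -8.85 without NonA RNAi replicate 2. With control replicate 1 left out, fit and Lsp1beta had no reads in any remaining library. Their fold there is 0 by construction, so the median of 0 is not a measured lack of difference. Lsp2, to and Lsp1alpha led by p. Of the 13 tested, 11 were below 0, against 48.2% of all genes tested, and 2 above, Pxn at 1.24 and nimC1 at 0.49. Pxn stood at 322 and 151 CPM in controls against 955 and 155 CPM. The highest library of the fat body and hemocyte sum was control replicate 1, which was not the highest for any innexin but shakB. In both lists 0 genes passed in edgeR (unadjusted p under 0.05 for 3 and 4, against 4.97% of all genes). DESeq2 called 2 and 3 genes of these lists, against 1.51% of all genes. Their part in the innexin levels was not tested.

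The clock neuron list had a median log2 fold of 0.61, with 9 of 10 genes higher, where 48.2% of all genes tested were below 0. That median was 1.34 without control replicate 1, 0.96 without NonA RNAi replicate 2, 0.54 without NonA RNAi replicate 1 and 0.43 without control replicate 2. Pdf, cwo and tim led by p at log2 folds of 3.96, 1.02 and 0.91. Of the 10, 0 passed in edgeR (unadjusted p under 0.05 for 1, against 4.97% of all genes). DESeq2 called 1, Pdf, against 1.51% of all genes.

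Septate junctions seal the glial sheath and epithelia beside the gap junctions, and their genes were read widely. The 22 genes listed summed to 7688 and 8458 CPM in controls against 4756 and 6773 CPM, the same order of libraries as the innexin sum. Most of each sum was Atpalpha, at 5505 and 4921 CPM in controls against 3261 and 5069 CPM, which was highest in control replicate 1. nrv2, also a glial marker, stood at 554 and 1208 CPM in controls against 72.5 and 367 CPM. The order of the sum therefore need not hold for the other genes, and 11 of the 22 were highest in control replicate 2. Of 22 septate junction genes 16 had a fitted log2 fold below 0 and 6 above, where 48.2% of all genes tested were below 0. The median of the 22 was -0.47 (-1.001 without control replicate 1, -0.86 without NonA RNAi replicate 1, -0.71 without NonA RNAi replicate 2, -0.32 without control replicate 2 and -0.28 with the replicate block). For 9 both NonA RNAi libraries were below both controls and for 0 above, against 17.5% and 15.2% of all genes tested. Below and above, the counts were 8 and 0 of 13 photoreceptor, 4 and 0 of 13 fat body and hemocyte, and 3 and 1 of 14 glial markers. They were 0 and 7 of 10 clock neuron, 1 and 0 of 10 pan-neuronal, 2 and 3 of 14 adherens junction, and 3 and 1 of 9 calcium store genes. Of the 22, 0 passed in edgeR (unadjusted p under 0.05 for bou and sinu, against 4.97% of all genes). DESeq2 called 1, bou, against 1.51% of all genes. sinu, a claudin gene, stood at 65.8 and 85.0 CPM in controls against 18.6 and 36.1 CPM, a log2 fold of -1.41, a standard error of 0.56 and an adjusted p of 0.921 in edgeR. scrib, a scaffold gene of the basolateral membrane, stood at 137 and 653 CPM in controls against 70.0 and 130 CPM, with control replicate 2 again far above the rest. The neurexin gene Nrx-IV and the band 4.1 gene cora, core members of the junction, had log2 folds of -0.24 (standard error 0.44) and -0.20 (0.43). For Nrx-IV both NonA RNAi libraries were below both controls, and for cora the groups overlapped.

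Adherens junction and polarity genes, whose cadherin and catenin proteins hold together the membranes in which epithelial gap junctions form, did not lean to either group. Of 14 genes 9 were above 0 and 5 below, where 48.2% of all genes tested were below 0, with a median of 0.13. That median turned to -0.13 without NonA RNAi replicate 2 and to -0.12 with a filter at an RPKM of 1. Of the 14, 0 passed in edgeR (unadjusted p under 0.05 for 0, against 4.97% of all genes) and 0 in DESeq2, against 1.51% of all genes. cno stood at 85.0 and 88.3 CPM in controls against 195 and 109 CPM, pyd stood at 72.9 and 86.6 CPM in controls against 39.8 and 49.4 CPM, whereas the log2 fold of baz was -1.43 (standard error 1.40).

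The genes of calcium stores and inositol trisphosphate, the signals that gap junctions pass between cells, had 4 of 9 above 0 and 5 below. Of all genes tested 48.2% were below 0. The median of the 9 was -0.23. The median was 0.018 without NonA RNAi replicate 2 and -0.049 without NonA RNAi replicate 1. Of the 9, 0 passed in edgeR (unadjusted p under 0.05 for 0, against 4.97% of all genes) and 0 in DESeq2, against 1.51% of all genes. Ca-P60A, the calcium pump of the endoplasmic reticulum, stood at 277 and 264 CPM in controls against 1714 and 233 CPM, so its log2 fold of 1.84 came from NonA RNAi replicate 1. Galpha49B and Plc21C had log2 folds of -0.67 and -0.58, each lower in either NonA RNAi library than in either control.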

How the data were processed

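Each library has a deposited table of raw read counts per gene symbol, with length, RPM and RPKM, per the file headers. Build dm3, TopHat2 2.1.1 and Cufflinks are named, per the submitters' processing notes; counting program, annotation and strand use are not given in the sources used. The RPKM deposited by the authors uses a length that spans introns (165981 bases for shakB) and is listed at 0 for 5 of the 7 innexins, so it served only as an alternative. The 4 entries without a gene name were dropped. Their share was 78.0% in NonA RNAi replicate 1 and 83.5% to 84.1% in the other libraries. The entry for alignments that were not unique held 45.2% in NonA RNAi replicate 1 and 53.7% to 55.6% in the others.

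CPM are reads divided by the sum of gene reads. Genes with a mean of at least 1 CPM over the 4 libraries were tested in edgeR 4.0.16 under R 4.3.3 (TMM factors, quasi-likelihood F test, two-sided, Benjamini-Hochberg threshold 0.05); the biological coefficient of variation was 73.6%. Standard errors are the absolute log2 fold over the square root of F. Alternatives were median-of-ratios scaling, library size only, other filters (none, 10 CPM, RPKM of 1 or, for genes without a length, 1 CPM), no dispersion trend, the replicate block, DESeq2 1.42.0 and each library left out. Coding lengths came from the Ensembl annotation of Release 6, in place of the protein table planned, and no coordinates are given because the builds differ. List genes were matched by symbol or RefSeq synonym (10 of 12 pan-neuronal genes, all of the other lists); nrv2 and norpA are each in 2 lists. Named genes were all innexins, zpg, nonA, up to 3 genes per list by smallest p, and the 2 genes closest in course to each of the 3 most-read innexins. Gs2, repo, moody, gcm, Eaat1, Nrx-IV, cora, Atpalpha, ninaE, Rh5, Rh6, Pxn, nimC1, fit and Lsp1beta were added after their values were seen. The members and lists were chosen with earlier results of these data known.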

Additional observations from a re-analysis of the deposited data

How the results depend on the processing

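No innexin passed the threshold under any alternative run, with adjusted p no lower than 0.0967 (ogre without a filter on low counts). inx3, inx7 and ogre kept their direction under all alternatives. Over the libraries left out, the log2 fold ran from -5.02 to 0.76 for inx2, -3.77 to -0.93 for ogre, -2.40 to -1.54 for inx3, -1.07 to -0.41 for inx7, -0.75 to 0.059 for shakB and -0.60 to 0.28 for nonA, so that inx2 turned without control replicate 2 and shakB and nonA without NonA RNAi replicate 1. A filter on a mean RPKM of at least 1, with genes without a length kept at a mean of 1 CPM, removed shakB, whose listed length is long. The count over all genes, 0 with all libraries, was 95 without a filter, 142 in DESeq2 and 0 to 37 with a library left out. Without a filter 2 photoreceptor and 3 fat body genes passed; in DESeq2 these were 2 and 3, beside 1 septate junction and 1 clock neuron gene; with a library left out they were 0 to 1 and 0 to 3. The ratio of ogre to shakB per length, a mean of 3.55 by coding length, was 22.5 in the deposited RPKM; without control replicate 2 these means were 1.03 and 6.69. With the replicate block, the log2 folds were -2.22 for inx2, -2.43 for ogre and -1.92 for inx3, and 0 genes passed. The replicate numbers are not shown to pair the libraries: across genes, the replicate differences of the groups correlated at -0.0115. The causes of these shifts were not tested. If their reads were counted, depth limits inx5 and inx6 to below about 0.356 CPM rather than to absence. Whether reads of these genes would have been counted is not known.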
